A study of Mus musculus with 4 samples.

Results

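The RNAs described here are 4 long noncoding RNAs that stay in or start from the nucleus, *Malat1*, *Neat1*, *Gas5* and *Snhg1*, together with 7SK, the small nuclear RNA made by *Rn7sk*. They are 5 of the 25819 rows of an expression table from the mouse urogenital sinus (UGS), the embryonic tissue from which the prostate buds. The rows were selected on their measured values, because the *Rn7sk* level stood out in the E18.5 wild type library, so that level and every ratio that uses it are given as a description and support nothing. RNA-Seq had been made from whole UGS of male Tbx18Gfp/Gfp embryos, homozygous for a null allele of the transcription factor gene *Tbx18* with GFP knocked in, and of wild type embryos from the same litters, at embryonic stages E16.5 and E18.5. All were on a B6C3-F1 hybrid background, and the knock-in removes *Tbx18* from the whole embryo, not from the UGS alone. Each of the 4 groups was 1 library of RNA pooled from 3 embryos. There was therefore no replicate check, no test between groups could be made, and a difference between groups cannot be told apart from a difference between libraries.

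7SK is transcribed by RNA polymerase III and works as a scaffold. With its capping enzyme MEPCE and the La-related protein LARP7 it holds the kinase P-TEFb (CDK9 with cyclin T) through HEXIM proteins, and so keeps the kinase from releasing paused RNA polymerase II. *Malat1* and *Neat1* are neighbouring genes on chromosome 19. *Malat1* RNA gathers in nuclear speckles, the stores of splicing factors, and *Neat1* RNA builds paraspeckles, bodies of RNA-binding proteins at the rim of speckles. *Gas5* and *Snhg1* carry small nucleolar RNAs (snoRNAs) in their introns. Their spliced RNAs begin with a pyrimidine-rich 5′ end and are cleared by nonsense-mediated decay once they are translated.

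The libraries had been prepared with a kit for messenger RNA, which captures poly(A) tails, so the ends of these RNAs bear on how each was measured. Sequences are from the GENCODE vM21 transcripts of the mouse genome. The first 110 bases of the 331-base transcript Rn7sk-201 are shown because the repeated GATC motif of the 5′ hairpin, part of the HEXIM binding site, lies here. Capitals mark the 3 copies of GATC, the only ones in the transcript.

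7SK 5′ end: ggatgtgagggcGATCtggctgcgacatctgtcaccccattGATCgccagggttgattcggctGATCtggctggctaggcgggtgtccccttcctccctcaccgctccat

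The last 60 bases of 3 of the transcripts follow, with the T-rich end of 7SK and the polyadenylation signal AATAAA of the others in capitals. 7SK holds no AATAAA anywhere in its sequence and ends in the T-rich stretch typical of RNA polymerase III genes. The 3004-base *Neat1* transcript, the short isoform, and the 605-base *Snhg1* transcript each carry AATAAA close to the end.

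7SK 3′ end: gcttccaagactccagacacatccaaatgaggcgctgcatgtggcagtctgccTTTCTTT

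Neat1 short isoform 3′ end: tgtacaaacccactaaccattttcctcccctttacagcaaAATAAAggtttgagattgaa

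Snhg1 3′ end: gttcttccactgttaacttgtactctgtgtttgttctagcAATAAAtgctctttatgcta

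*Malat1* is known to lack a poly(A) tail at its main 3′ end, which RNase P cuts behind a genome-encoded A tract that folds into a triple helix with a pair of U-rich stretches. Positions 6594 to 6695 of the 6983-base transcript are shown for this element, with both U-rich stretches (written with T) and the run of 12 A bases in capitals.

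Malat1 A tract: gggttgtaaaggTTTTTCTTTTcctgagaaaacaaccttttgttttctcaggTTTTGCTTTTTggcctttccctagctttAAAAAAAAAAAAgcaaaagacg

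Expression was given as FPKM, fragments per kilobase of transcript and per 1000000 mapped reads. Rows not much longer than a fragment depend on the fragment length assumed, so their levels are compared only between libraries. From genes whose value was that of 1 read, the E18.5 wild type library held an estimated 29.0 M mapped reads (M stands for 1000000) and the other libraries 52.4 to 64.0 M. *Tbx18* ranged from 2.50 to 3.47 FPKM, and the table does not separate transcript of the GFP allele from that of the intact gene. All 13 markers of the UGS epithelium and all 11 of its mesenchyme and smooth muscle reached 1 FPKM in either library of every comparison. So did all 8 skeletal muscle markers and all 7 of neurons and glia. The markers were thus present, but this low limit cannot tell the labelled tissue from others. The E18.5 wild type library stood apart from the rest. Over the 14975 genes above 0 in all libraries, the highest level was a median 1.54 times the lowest, but 1.14 times the lowest when this library was left out. A ratio was called where it reached 2-fold, a log2 ratio of 1 or more in size, among genes that reached 1 FPKM in one or both of the libraries compared. All 5 RNAs passed that filter in all 4 comparisons.

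7SK varied most. *Rn7sk*, on chromosome 9 from 78023109 to 78023440 in the coordinates of the deposited table, had 81.6 FPKM in E16.5 wild type UGS, 40.0 FPKM in E16.5 Tbx18Gfp/Gfp UGS, 637 FPKM in E18.5 wild type UGS and 34.4 FPKM in E18.5 Tbx18Gfp/Gfp UGS. The E18.5 wild type level was 7.81 times the next highest and 18.55 times the lowest. Among the 10855 genes above 0 in all libraries that reached 5 FPKM in at least 1 of them, *Rn7sk* was 12th by the ratio of its E18.5 wild type level to the highest of the others.

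The levels rested on an estimated 624, 266, 2211 and 215 reads, in the same order of libraries. The gene is only 332 bases long in the table, close to the length of a sequenced fragment, so its FPKM depends strongly on the fragment length that Cufflinks assumed. The same assumption held for all libraries. Reads of 7SK pseudogenes elsewhere in the genome may have been shared with this row. 7SK holds no AATAAA, and the kit captures poly(A) tails. Its level may therefore also depend on how much of it passed that capture, which was not tested.

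**Figure D1:**
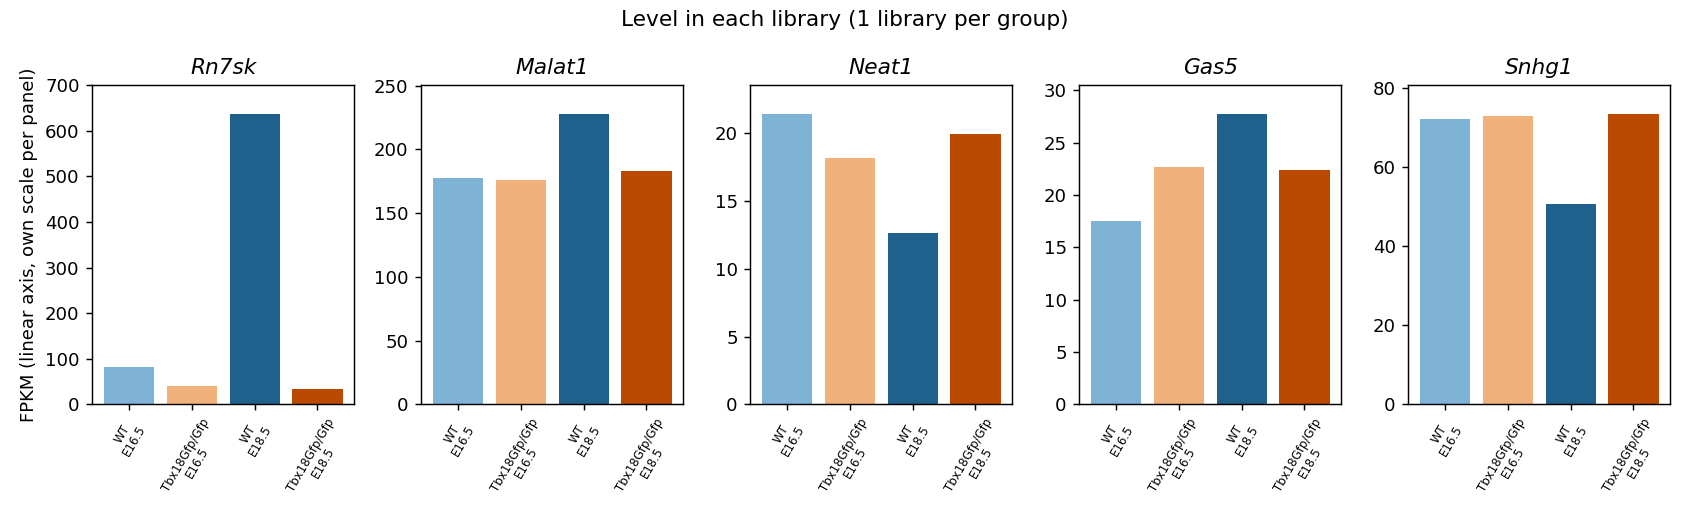
FPKM of each RNA (vertical axes, linear from 0, a separate scale per panel) in the 4 libraries, 1 bar per library with no error bar because each group was 1 library. *Rn7sk* reached 637 FPKM in E18.5 wild type UGS against 34.4 to 81.6 FPKM in the others, and *Snhg1* and *Neat1* were lowest in the library where *Malat1* and *Gas5* were highest.

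The E16.5 comparison does not use the library on which *Rn7sk* was selected. *Rn7sk* was lower in Tbx18Gfp/Gfp than in wild type UGS, with a log2 ratio of -1.03 and a counting interval of 95% from -1.24 to -0.82. This interval, like the others here, covers counting error only and not the spread between embryos or library preparations. *Rn7sk* was 163rd from the lowest of 14761 genes. It was the only one of the 5 RNAs past 2-fold, where 1.17% of all genes were at least 2-fold lower, and the ratio lay close to the threshold. Muscle markers were lower in the same library. All 8 skeletal muscle markers were at least 2-fold lower in the mutant, their summed level was 766 against 318 FPKM, and none was at 0. The smooth muscle genes *Actg2* and *Myh11* had log2 ratios of -1.95 and -1.47. At E18.5 the skeletal list was divided, with 4 markers higher and 4 lower in the mutant and sums of 381 FPKM in wild type and 756 FPKM in mutant UGS, and *Actg2* and *Myh11* had ratios of 2.16 and 0.83. The part of muscle RNA in the *Rn7sk* differences was not tested.

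At E18.5 *Rn7sk* was again lower in Tbx18Gfp/Gfp UGS, with a log2 ratio of -4.21 (counting interval from -4.42 to -4.01), the 17th lowest of 14733 genes. Here 2.89% of all genes were at least 2-fold lower and *Rn7sk* was the single member among them. Between the wild type libraries it was higher at E18.5 than at E16.5 with a log2 ratio of 2.97 (2.84 to 3.10), where 2.7% of all genes were at least 2-fold higher. Both ratios use the E18.5 wild type library that chose the gene, so nothing is read from them. Without that library, E18.5 Tbx18Gfp/Gfp against E16.5 wild type gave a log2 ratio of -1.25. Between the Tbx18Gfp/Gfp libraries *Rn7sk* had a log2 ratio of -0.22 from E16.5 to E18.5, with a counting interval of -0.49 to 0.05 that includes 0. None of the 5 RNAs reached 2-fold there, where 1.92% of all genes did in either direction. The order of the levels was thus E18.5 wild type, E16.5 wild type and then both Tbx18Gfp/Gfp libraries, which did not differ beyond counting error.

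**Figure D2:**
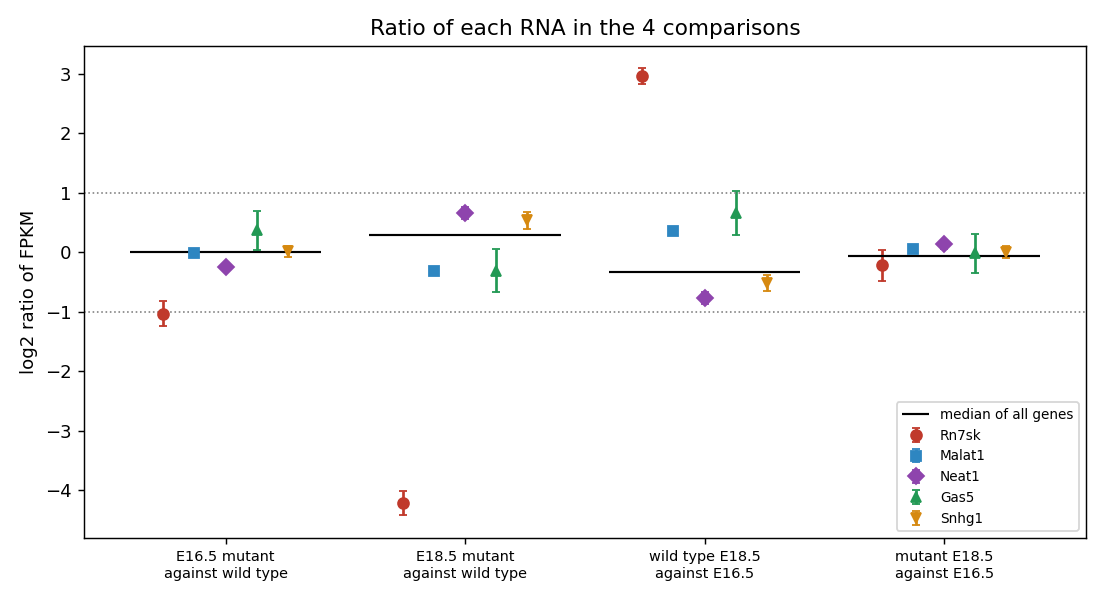
Log2 ratio of FPKM (vertical axis) of each RNA in the 4 comparisons, with counting intervals of 95% as bars, the median of all genes as a black line and 2-fold as dotted lines. *Rn7sk* lay at -1.03, -4.21, 2.97 and -0.22, while the other RNAs stayed within 2-fold in all 4 comparisons.

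Other short structured RNAs in the table went both ways when rows were kept by their reads. Rows of 150 to 400 bases for small nuclear, nucleolar, RNase and other structured RNAs were kept where the mean over the 4 libraries was at least 10 estimated reads, a limit chosen after their values were seen. This gave 6 rows besides *Rn7sk*. At E16.5 4 of the 6 were lower in Tbx18Gfp/Gfp than in wild type UGS, 2 of them at least 2-fold, and 2 were higher. Of all genes 45.7% were lower there and 1.17% at least 2-fold lower. At E18.5 the same numbers were lower and higher, with all 4 of the lower rows past 2-fold and 1 of the higher rows. Of all genes 30.5% were lower there and 2.89% at least 2-fold lower. The 2 higher rows were not in the list of RNA polymerase III transcripts and structured small RNAs. From that list, 8 rows of 150 to 400 bases, *Rn7sk* included, were above 0 in all libraries and reached 1 FPKM. All 8 were lower in the mutant at both stages, 5 at least 2-fold at E16.5 and 8 at E18.5. Some of these fell below the read limit.

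*Rmrp*, the RNA of the RNase MRP enzyme, had 28.5 FPKM in E16.5 wild type, 9.94 in E16.5 Tbx18Gfp/Gfp, 27.1 in E18.5 wild type and 9.45 in E18.5 Tbx18Gfp/Gfp UGS. The log2 ratio of mutant to wild type was -1.52 at each stage, and unlike *Rn7sk* the level of *Rmrp* was nearly the same in both wild type libraries. *Rpph1*, the RNA of RNase P, had 8.60, 1.91, 11.6 and 1.52 FPKM in the same order, on an estimated 62, 12, 38 and 9 reads. It too was higher in each wild type library than in either mutant library.

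*Rnu2*, the U2 spliceosomal RNA, had 82.6, 50.4, 240 and 59.98 FPKM, and *Rn4.5s*, a rodent RNA polymerase III transcript, had 53.7, 41.1, 158 and 71.0 FPKM. Both were highest in E18.5 wild type UGS, as *Rn7sk* was, and their E16.5 ratios were within 2-fold. The U1 rows *Rnu1b1* and *Rnu1b6* and the U3 row *Rnu3b1* were also highest there, at 31.2, 44.9 and 9.32 FPKM. Each of these rested on fewer than 11 estimated reads in every library and shares reads with near-identical copies, so no fold is read from them. The rows that were higher in the mutant were both snoRNAs that guide ribosomal RNA processing. *Snora73a* had 22.8, 28.5, 16.7 and 26.1 FPKM, and *Snora73b* had 24.8, 30.9, 6.08 and 33.7 FPKM, the third of these on 4 estimated reads. Both rows lie near each other on chromosome 4 and may share reads. Both were thus lowest in the library where *Rn7sk* was highest. The list of RNA polymerase III transcripts and structured small RNAs matched 22 rows. Of these 11 were at 0 in E18.5 wild type UGS, the least deep library, and 6 in E16.5 wild type UGS. The counts were 8 in E16.5 and 9 in E18.5 Tbx18Gfp/Gfp UGS. Among all 232 rows of 150 to 400 bases, 129 were at 0 in E18.5 wild type and 92 in E16.5 wild type UGS. Among 541 rows under 150 bases, 527 and 509 were at 0 in these libraries. The same list of 22 rows also held *Rn18s*, 18S ribosomal RNA, which is neither a small RNA, at a locus of 1849 bases, nor an RNA polymerase III transcript. *Rn18s* had the highest mean of the list, at 2594, 2891, 1622 and 2661 FPKM. It was lowest in E18.5 wild type UGS, where *Rn7sk* was highest.

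**Figure D3:**
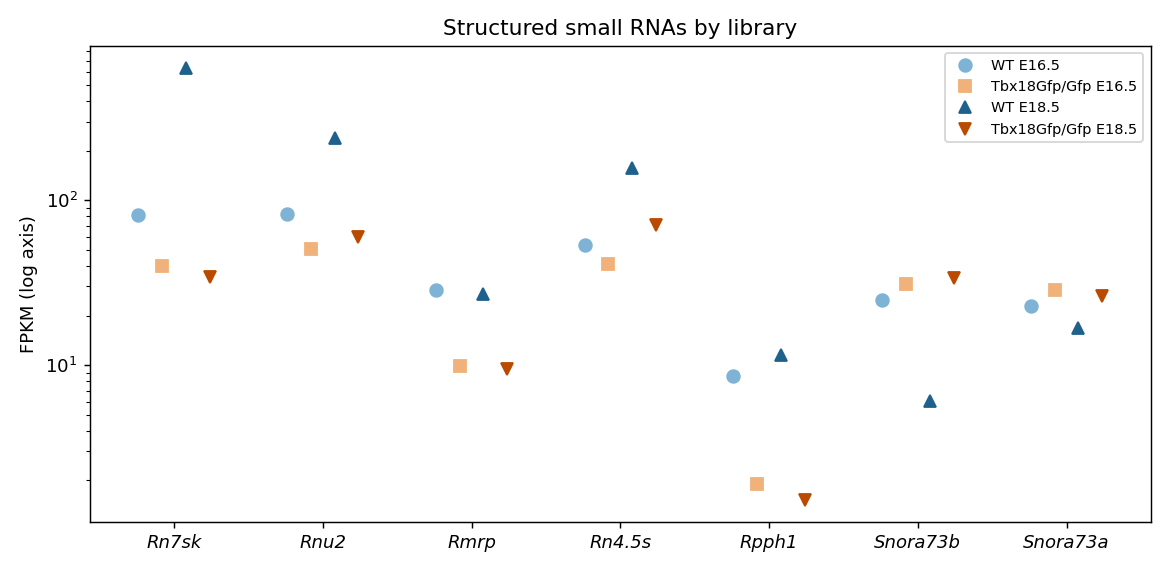
FPKM (log axis) of *Rn7sk* and 6 other structured small RNAs in the 4 libraries, 1 point per library, in order of mean estimated reads. The wild type points lie above the mutant point of the same stage for the first 5 rows and below it for *Snora73b* and *Snora73a*, and for *Rmrp* the wild type points nearly coincide at 28.5 and 27.1 FPKM.

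The mRNAs for the proteins of the 7SK complex were close to equal at E16.5, where *Rn7sk* was past 2-fold. At that stage the 12 listed genes of the 7SK particle and P-TEFb had log2 ratios between -0.09 and 0.13 with a median of 0.05, beside 0.01 over all genes, and none reached 2-fold. *Larp7*, whose protein binds the 3′ end of 7SK, had 28.5 and 27.7 FPKM in E16.5 wild type and Tbx18Gfp/Gfp UGS and 32.9 and 26.5 FPKM at E18.5. *Hexim1*, which encodes the inhibitor of P-TEFb, had 18.4 and 19.05 FPKM at E16.5 and 12.4 and 16.8 at E18.5. *Mepce*, for the capping enzyme, had 14.9, 15.5, 7.04 and 13.1 FPKM in the order of the libraries used above. It was therefore lowest in the library where *Rn7sk* was highest.

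At E18.5 the median log2 ratio of the list was 0.16 beside 0.29 over all genes, with 7 genes higher and 5 lower in the mutant. *Ccnt1*, for cyclin T1, had 18.3 FPKM in the wild type library and 10.6 in the mutant library, and *Cdk9*, its kinase partner, had 7.96 and 13.1 FPKM. The parts of one complex thus lay on both sides of 0 when the E18.5 wild type library was used, and between the Tbx18Gfp/Gfp libraries none of the 12 reached 2-fold.

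The transcription factors that serve *Rn7sk* were likewise close to equal at E16.5. The 23 listed genes of RNA polymerase III and of the snRNA promoter complex had a median log2 ratio of 0.03, ranging from -0.46 to 0.17, and none reached 2-fold. At E18.5 the median was 0.37 beside 0.29 over all genes. In the mutant 2 genes were at least 2-fold higher and 2 at least 2-fold lower, where 15.1% and 2.89% of all genes were. *Maf1*, a repressor of RNA polymerase III, stood at 10.8 FPKM in the wild type against 26.9 FPKM in the Tbx18Gfp/Gfp library. *Snapc2*, of the snRNA promoter complex, had 6.91 and 17.9 FPKM. *Tbp*, the TATA-binding protein, had 27.2 and 13.02 FPKM, and *Pou2f1*, which binds snRNA promoters, had 5.003 and 2.07 FPKM. *Ssb*, whose La protein binds new RNA polymerase III transcripts, had 135 and 81.3 FPKM.

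*Malat1* was the highest of the 4 long noncoding RNAs, per length, in every library. On chromosome 19 from 5795690 to 5802671, it had 178 FPKM in E16.5 wild type, 176 in E16.5 Tbx18Gfp/Gfp, 228 in E18.5 wild type and 183 in E18.5 Tbx18Gfp/Gfp UGS. These rested on an estimated 76996, 66355, 44786 and 65054 reads, the most of any member, and on counting error alone even small ratios were resolved. At E16.5 the log2 ratio of mutant to wild type was -0.02, and its sign turned positive, to 0.01, when a length and GC trend was taken off. At E18.5 it was -0.31, or -0.60 once the all-gene median was subtracted, and it stayed negative under every scaling tried, from -0.74 to -0.19. Without the E18.5 wild type library, E18.5 Tbx18Gfp/Gfp against E16.5 wild type gave 0.04. The 3 libraries other than E18.5 wild type lay within 1.04-fold of each other, beside a median of 1.14-fold over all genes.

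Nuclear speckle genes stayed within 2-fold between genotypes at both stages. The 17 listed genes for speckle and SR splicing proteins had a median log2 ratio of 0.01 at E16.5, between -0.06 and 0.12. At E18.5 the median was 0.12 beside 0.29 over all genes, with 9 higher and 8 lower in Tbx18Gfp/Gfp UGS. *Srsf5* stood at 197 FPKM in E18.5 wild type against 190.2 FPKM in mutant UGS, whereas *Srsf3* had 66.9 and 132 FPKM and *Pnn* had 82.0 and 46.0 FPKM. All 3 encode proteins of the splicing machinery in speckles.

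*Neat1* differed from its neighbour. Its row, on chromosome 19 from 5842302 to 5845478, spans 3177 bases, so it covers the short isoform and the part of the long isoform that is shared with it, and not the rest of the 20771-base long transcript that builds the paraspeckle. *Neat1* had 21.4 FPKM in E16.5 wild type, 18.2 in E16.5 Tbx18Gfp/Gfp, 12.6 in E18.5 wild type and 20.0 in E18.5 Tbx18Gfp/Gfp UGS, on 4063, 3001, 1086 and 3103 estimated reads. It was lowest in the library where *Malat1* was highest. The log2 ratio of mutant to wild type was -0.24 at E16.5 (counting interval -0.31 to -0.17) and 0.66 at E18.5 (0.56 to 0.76), neither past 2-fold. With the all-gene median subtracted the E18.5 ratio was 0.37, and it was 0.24 with library sums made equal. Between the wild type libraries the log2 ratio of E18.5 to E16.5 was -0.76, and between the mutant libraries it was 0.14. With E16.5 wild type in place of E18.5 wild type as the control, the E18.5 mutant ratio was -0.10, a change of sign.

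The genes for paraspeckle proteins were close to equal at E16.5 and moved both ways at E18.5. Of 15 listed, the E16.5 log2 ratios lay between -0.05 and 0.11. *Nono*, a core paraspeckle protein, had 171 FPKM in both E16.5 libraries, 319 in E18.5 wild type and 163 in E18.5 Tbx18Gfp/Gfp UGS. *Sfpq*, the partner of *Nono*, had 112, 115, 111 and 102 FPKM. *Rbm14* had 19.3, 19.6, 8.15 and 16.4 FPKM and was the one listed gene past 2-fold at E18.5, higher in the mutant. Of all genes 15.1% were at least 2-fold higher there. The list median at E18.5 was 0.15 beside 0.29 over all genes.

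Genes near the pair on chromosome 19 were also listed. The 14 genes, a chosen list and not a full count of the region, started within 1534 kb of *Malat1*. Of these 13 passed the filter. At E16.5 their median log2 ratio was 0.03. At E18.5 12 of 13 were higher in Tbx18Gfp/Gfp UGS, with 7 past 2-fold and a median of 1.04, which was 0.75 above the median of all genes. Of all genes 69.5% were higher there, and 15.1% at least 2-fold. *Malat1* thus had the opposite sign to 12 of these 13 listed genes, and *Neat1*, at 0.66, the same sign as those 12. *Frmd8*, which lies next to the pair, stood at 3.45 FPKM in E18.5 wild type against 8.11 FPKM in mutant UGS.

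*Gas5* and *Snhg1* share a function as snoRNA hosts, yet in E18.5 wild type UGS one was at its highest and the other at its lowest level. The 110 bases around each start site, 60 before and 50 after, are shown from RefSeq in GRCm38.p6, both on the plus strand, because the pyrimidine tract at the start is what places such genes with the ribosomal protein genes. Capitals mark the longest pyrimidine run near the start. RefSeq gives *Gas5* a second start upstream, which is not shown.

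Gas5 chr1:161035106-161035215: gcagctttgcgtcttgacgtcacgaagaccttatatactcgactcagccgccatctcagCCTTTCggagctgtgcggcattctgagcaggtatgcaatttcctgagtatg

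Snhg1 chr19:8723427-8723536: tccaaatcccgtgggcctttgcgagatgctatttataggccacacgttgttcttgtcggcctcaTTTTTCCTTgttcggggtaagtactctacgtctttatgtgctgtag

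The 300 bases from 250 before to 50 after each start were searched on both strands for 3 motifs, the TATA motif, the GC box motif GGGCGG bound by Sp1, and the full CREB motif TGACGTCA. The *Gas5* window held all 3, and the *Snhg1* window held the first and the second. TATA was found in 36.7% of all 32851 RefSeq promoters, the GC box motif in 35.7% and the CREB motif in 1.79%. A match is a description of the letters and not of binding.

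*Gas5*, on chromosome 1 from 162965297 to 162968668, had 17.5 FPKM in E16.5 wild type, 22.7 in E16.5 Tbx18Gfp/Gfp, 27.8 in E18.5 wild type and 22.4 in E18.5 Tbx18Gfp/Gfp UGS. Its spliced length in the authors' annotation is not known, and for GENCODE isoforms of 346 to 665 bases the estimates ran from 149 to 504 reads in E16.5 wild type, 168 to 569 in E16.5 Tbx18Gfp/Gfp, 107 to 363 in E18.5 wild type and 156 to 530 in E18.5 Tbx18Gfp/Gfp UGS. Intervals were taken from the lower numbers. The log2 ratio of mutant to wild type was 0.37 at E16.5 (counting interval 0.05 to 0.70) and -0.31 at E18.5 (-0.67 to 0.06), and the second interval includes 0. Between the wild type libraries the log2 ratio of E18.5 to E16.5 was 0.67, and between the mutant libraries it was -0.02. The last of these changed sign under 2 of the scalings.

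*Snhg1*, on chromosome 19 from 8797977 to 8800816, had 72.0 FPKM in E16.5 wild type, 72.9 in E16.5 Tbx18Gfp/Gfp, 50.5 in E18.5 wild type and 73.4 in E18.5 Tbx18Gfp/Gfp UGS. For a spliced length of 605 bases this was an estimated 1800, 1587, 573 and 1503 reads. The 3 libraries other than E18.5 wild type lay within 1.02-fold of each other. The log2 ratio of mutant to wild type was 0.02 at E16.5, with an interval from -0.08 to 0.12, and its sign turned under 3 alternatives. At E18.5 it was 0.54 (0.40 to 0.68), or 0.25 after subtracting the all-gene median. *Snord22*, a snoRNA row inside the *Snhg1* locus, was listed at 354, 436, 279 and 340 FPKM, lowest in E18.5 wild type UGS as its host was. That row is 126 bases long, shorter than most fragments, and no fold is read from it.

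The sign of *Snhg1* at E18.5 was the commoner one among host genes, as it was among all genes. Of 34 snoRNA host genes in the table, *Gas5* and *Snhg1* included, 26 were higher and 8 lower in E18.5 Tbx18Gfp/Gfp UGS, with 6 at least 2-fold higher and none 2-fold lower, beside 69.5% of all genes higher and 15.1% at least 2-fold higher. Against the all-gene median 18 hosts were higher and 16 lower. Their median log2 ratio was 0.43 beside 0.29 over all genes, and only 0.01 with library sums made equal. At E16.5 the median was 0.02, between -0.30 and 0.37, and *Gas5* was the highest of the list. *Rack1*, for a scaffold protein of the ribosome, had 252 FPKM in E18.5 wild type and 634 in mutant UGS. *Rpl23a*, a ribosomal protein gene, had 1179 and 1136 FPKM in the same libraries. *Snhg7* and *Snhg16*, noncoding hosts like *Snhg1*, had 3.07 and 2.13 FPKM in E18.5 wild type and 9.87 and 6.55 FPKM in mutant UGS.

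Genes for the decay factors that act on RNAs such as *Gas5* and *Snhg1* stayed within 2-fold between genotypes. There were 14 listed genes for nonsense-mediated decay. Their E16.5 and E18.5 median log2 ratios were -0.01 and -0.08, and at the later stage 6 were higher and 8 lower. Against the all-gene median of 0.29 at E18.5, 4 were higher and 10 lower, with a median of -0.37. *Upf1*, the central helicase, had 18.8 FPKM in both E16.5 libraries, 8.91 in E18.5 wild type and 15.7 in E18.5 Tbx18Gfp/Gfp UGS. *Upf3b* had 15.3, 15.1, 26.2 and 14.2 FPKM. Of 18 listed factors of RNA 3′ end formation and nuclear turnover, none reached 2-fold at E16.5. At E18.5 2 did, both higher in the mutant, where 15.1% of all genes were at least 2-fold higher. The 2 factors were *Rpp14*, a subunit of RNase P, and *Toe1*, a 3′ exonuclease of small nuclear RNAs. They had 4.32 and 4.38 FPKM in E18.5 wild type and 8.74 and 10.2 FPKM in mutant UGS.

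Among 16 other long noncoding RNAs that passed the filter at each stage, 8 were higher and 8 lower in the mutant at E16.5. The numbers were the same at E18.5, but 54.2% of all genes were higher at E16.5 and 69.5% at E18.5. Against the all-gene median 7 of the 16 were higher and 9 lower at E16.5, and 5 higher and 11 lower at E18.5. The highest of these RNAs were *H19*, an imprinted growth regulator, at 802, 842, 940 and 859 FPKM, and *Meg3*, from the imprinted *Dlk1* region, at 253, 240, 171 and 255 FPKM. *Kcnq1ot1* and *Mirg* were at least 2-fold lower in E18.5 Tbx18Gfp/Gfp UGS, at 1.69 and 11.7 FPKM against 4.70 and 27.1 FPKM in wild type. Of all genes 2.89% were at least 2-fold lower there. No list RNA reached 2-fold at E16.5.

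GC content moved with the E18.5 ratios over all genes. The median log2 ratio of mutant to wild type rose from -0.05 in the tenth of genes with the lowest GC content to 0.82 in the tenth with the highest, while at E16.5 it was 0.01 and 0.02. *Rn7sk*, with 58.0% GC, lay at -4.21 where genes of like GC content had a median of 0.65 and a range from the 10th to the 90th percentile of -0.12 to 1.41. *Malat1*, with 42.5% GC, lay at -0.31 where such genes had a median of 0.04 and that range was -0.53 to 0.58. *Neat1* and *Gas5*, with 51.1% and 51.7% GC, fell in the same class, with a median of 0.35, and lay on opposite sides of it at 0.66 and -0.31. *Snhg1*, with 42.2% GC, lay at 0.54, inside the range of its class. At E16.5 *Gas5*, at 0.37, *Neat1*, at -0.24, and *Rn7sk*, at -1.03, lay outside the ranges of their classes, which ended at 0.18, -0.23 and -0.22. The E18.5 ratio of *Rn7sk* uses the library on which it was selected, so its place there is given as a description. The part of GC content in these ratios was not tested.

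**Figure D4:**
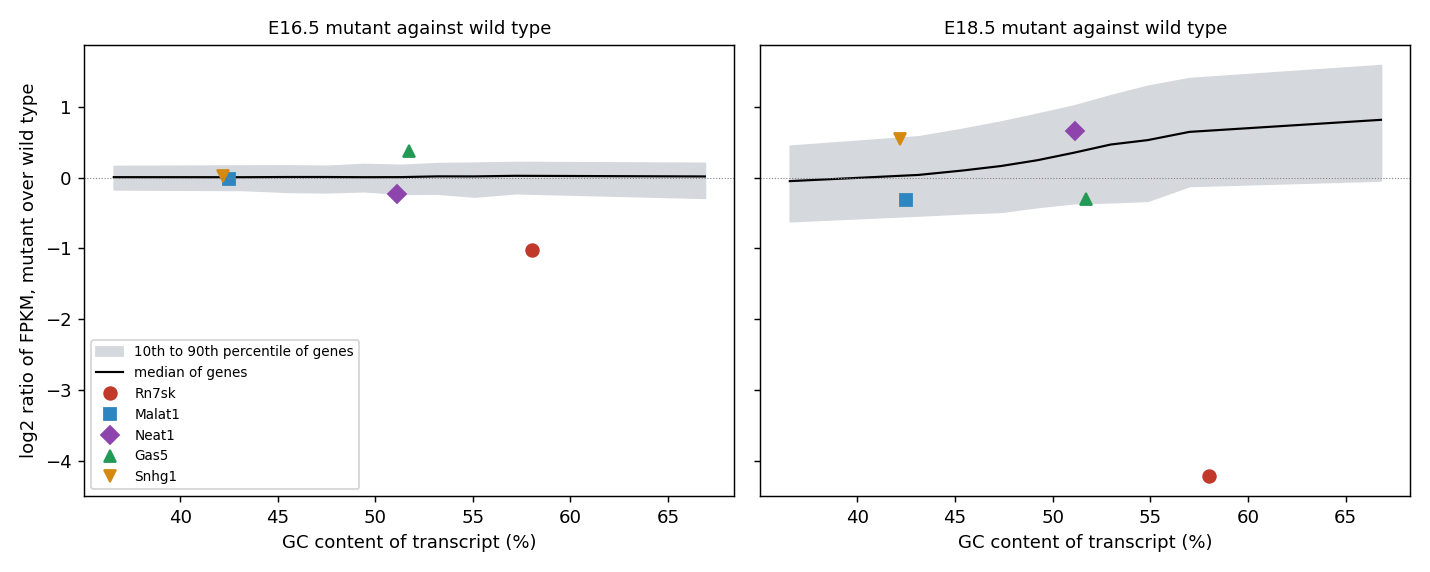
Log2 ratio of FPKM, mutant over wild type (vertical axis), against GC content of the transcript in percent (horizontal axis) at E16.5 and E18.5. The line is the median and the grey band the 10th to 90th percentile of genes in 10 classes of GC content, and the points are the 5 RNAs. The line is flat at E16.5 and rises to 0.82 at E18.5. *Rn7sk* lies below it there at -4.21, a ratio that uses the library on which it was selected.

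Blood genes differed between the same libraries. Summed over 8 erythroid markers, the E16.5 mutant library had 19618 FPKM against 12229 in its control, and the E18.5 mutant library 17309 against 3805. Most of each sum came from *Hba-a1* and *Hbb-b1*, at 8812 and 3348 FPKM in the E16.5 control. Of 7 markers that passed the filter at E16.5, 5 were higher in the mutant and 2 at least 2-fold lower. The lower ones were the weakly expressed embryonic globins *Hbb-y* and *Hba-x*, with log2 ratios of -2.89 and -2.01. In E18.5 wild type UGS, the least deep library, *Hbb-y* and *Hbb-bh1*, another embryonic globin, were at 0. *Hbb-bh1* did not exceed 0.24 FPKM in any library. All 7 markers that passed the filter were higher in the E18.5 mutant. In whole tissue, fewer cells of a type and less RNA per cell cannot be told apart, and the part of blood RNA in the levels of the 5 RNAs was not tested.

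The genes whose profile over the 4 libraries was nearest to each RNA were found by the distance between log2 profiles, each centred on its own mean, among 13639 genes with at least 1 FPKM in every library. For *Malat1* they were *Tpmt*, *Tfg* and *2610030H06Rik*, at distances of 0.0061 to 0.023 in log2 units. For *Snhg1* they included *Dcp2* and *Gnptg*, at 0.0073 and 0.0096. For *Neat1* they were *Porcn*, *Mkrn3* and *Rab40b*, at 0.041 to 0.053. For *Gas5* they were *Sepp1*, *Gnpda1* and *Tfpi*, at 0.073 to 0.084. No gene came as close to *Rn7sk*. Its nearest were *Gm14303*, a row of 313 bases with 8.92, 5.39, 94.7 and 8.26 FPKM, then *LOC100504131* and *Pigr*, at distances of 0.83 to 1.01. The *Rn7sk* distances use the E18.5 wild type level for which it was selected as standing out, so nothing is read from them. With 4 libraries a near profile describes these libraries only.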

How the data were processed

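Whole UGS RNA-Seq of 4 libraries was analysed, 1 for each genotype and stage, each from RNA pooled from 3 embryos. The deposited values are FPKM that the authors obtained from single-end stranded reads with TopHat2 2.1.0 and Cufflinks 2.2.1, after Trimmomatic 0.30 and CASAVA 1.8.2 per the submitters' processing notes. The genome build was not given in the sources used here and differs from GRCm38. The 5 members and all gene lists were chosen with earlier results of these data known. Ratios were taken of the FPKM as deposited, without pseudocount, for genes reaching 1 FPKM in one or both libraries compared. Depth was fitted to 15 to 27 single-read olfactory receptor genes per library. Reads were estimated with the Cufflinks default fragment length of 200 ± 80 bases, and 54.1% of 233 low values of short rows came within 0.05 of a whole read. Counting intervals are exact (Clopper-Pearson on the share of reads). List genes were matched by symbol or RefSeq synonym, 291 names in all lists. Values are named for up to 4 genes of a list with the highest mean FPKM or past 2-fold, and others were chosen after their values were seen. Some genes of the lists are counted but not reported here by name. The 13 mitochondrial genes listed matched no row used here. GC content was known for 83.1% of rows at 1 FPKM or more. Steps were tested on simulated data. Python 3.11.15 was used with pandas 2.3.3, scipy 1.17.1 and statsmodels 0.14.6.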

Additional observations from a re-analysis of the deposited data

Results flagged for a closer look

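With 1 library per group, a difference between stages in the effect of genotype could not be tested. It is listed where the sign of the ratio turned between stages, or where the change from E16.5 to E18.5 had opposite signs in the 2 genotypes. The log2 ratio of mutant to wild type at E18.5 minus that at E16.5 was 0.90 for *Neat1*, which went from -0.24 to 0.66. It was -0.68 for *Gas5*, which went from 0.37 to -0.31. For *Snhg1* it was 0.52, and for *Rn7sk* it was -3.18. For *Snhg1* and *Rn7sk* the ratio of mutant to wild type kept its sign, while the change from E16.5 to E18.5 was -0.51 and 2.97 in wild type and 0.01 and -0.22 in mutant UGS. The mutant change of *Snhg1* had a counting interval from -0.09 to 0.11 that includes 0. It turned negative, as far as -0.06, under 3 alternatives, so its opposite sign did not hold. That of *Rn7sk* had an interval from -0.49 to 0.05. All 4 values rest on the single E18.5 wild type library, which stood apart over all genes and chose *Rn7sk*, and the differences between stages were not tested.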

How the results depend on the processing

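No paired analysis was possible because the labels give no replicate numbers that join libraries. No library could be left out of a group, since each group is 1 library. The count of members past 2-fold was 1, 1, 1 and 0 in the 4 comparisons, and where a member was counted at 2-fold *Rn7sk* was among them under all settings. With a threshold of 1.5-fold it was 2 for E18.5 mutant against wild type, adding *Neat1*, and 3 for wild type E18.5 against E16.5, adding *Neat1* and *Gas5*. When the length and GC trend was taken off, the latter count was 2, adding *Gas5* at 1.14. With the E18.5 mutant in place of the E18.5 wild type library, the *Rn7sk* ratio against E16.5 wild type turned from 2.97 to -1.25, which follows from the exchange of libraries. With library sums made equal the E18.5 ratio of *Snhg1* was 0.12 and that of *Gas5* -0.73. The *Rn7sk* ratio of mutant to wild type ranged from -1.13 to -1.01 at E16.5 and from -4.95 to -4.17 at E18.5 over 10 alternatives. These varied the scaling, trend, pseudocount, filter and threshold, and a change of filter or threshold cannot move a ratio. The E18.5 ratio uses the library that chose *Rn7sk*.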
